A study of Mus musculus with 16 samples.

Results

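The 8 genes described here are factors tied to upper layer and callosal neuron fate in the cortex: the cut homeodomain proteins Cux1 and Cux2, the POU domain proteins Pou3f1, Pou3f2 and Pou3f3, the nuclear receptor Rorb, the LIM-only cofactor Lmo4 and the corepressor Ski. They were taken from the matrix by symbol, with no threshold on a measured value, and all 8 were present among the 14498 genes of the count matrix. The cells were taken from the forebrain of wild-type CD1 mice, a single untreated group at embryonic day 15.5, and RNA was captured in droplets with a kit whose UMIs (unique molecular identifiers) let each captured RNA molecule be counted once. The 16 samples carry identical labels and were pooled in 1 matrix in which no cell is tied to a sample. No value below therefore has a replicate error or a test across embryos, and every interval is a 95% interval of counting error only.

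In the embryonic cortex, radial glia at the ventricle give rise to intermediate progenitors, and the daughters of both migrate outwards as young excitatory neurons. Neurons of the deep layers are born before those of the upper layers, many of which send axons through the corpus callosum to the other hemisphere. Cux1 and Cux2 shape dendrites and synapses of upper layer neurons, Pou3f2 (Brn2) and Pou3f3 (Brn1) act together in the production and migration of those neurons, Rorb marks and organises the granular layer, and Lmo4 and Ski take part in callosal projection identity. GABAergic interneurons come from the ganglionic eminences of the ventral forebrain and reach the cortex by tangential migration.

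After 4 cells rich in globin RNA had been set apart, 5773 cells with a median of 3258 UMIs (range over the deposited cells 1111 to 17398) fell into 23 clusters, drawn without the 8 genes as features. Radial glia-like cells numbered 710, intermediate progenitor-like cells 439, migrating excitatory neuron-like cells 792, older excitatory neuron-like cells 1749 and interneuron-like cells 719. The older excitatory class joined 5 clusters: 2 deep layer neuron-like clusters led by Hs3st4 (581 cells) and by Fosl2 (176 cells), and 3 without a subclass name, called here by genes among their leading ones, namely Clstn2 and Itpr1 (448 cells), Crym and Crabp1 (340 cells) and Nts and Nr2f2 (204 cells). No cluster earned the name of upper layer neuron. The 6 markers of that name summed to 481 counts per 1000000 UMIs (CPM) in the Clstn2 cluster and to 826 CPM in the Hs3st4 cluster. The Crym cluster was placed in the older class although it fit the migrating neuron list best. The 7 markers of that list summed to 2877 CPM in it and to 3517 CPM in migrating neuron-like cells. The order of cells in the matrix holds 2 runs, of 3647 and 2122 cells, whose origin the labels do not give. The runs differ in cell makeup and in several levels below, so values within each run are printed where they end a call, turn a direction or move a ratio by more than 1.5 times.

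The members held between 331 UMIs (Cux2) and 10804 UMIs (Pou3f3) over all cells, and these totals also depend on how well the 3′ end of each gene was captured, so levels are compared between classes and not between genes. A level is the summed UMIs of a gene in a class per 1000000 UMIs of that class (CPM). Counts of a gene in cells of other types serve as a reference for low levels, and whether they come from free RNA was not tested. In 46 microglia- and fibroblast-like cells, of median depth 4153.5 UMIs, Pou3f3 stood at 71.3 CPM (40.7 to 116), Pou3f2 at 40.1 CPM (18.3 to 76.1), Pou3f1 at 4.46 CPM (0.113 to 24.8) and Cux2 at 0 CPM (0 to 16.4). The Cux2 levels of radial glia-like (8.34 CPM), intermediate progenitor-like (13.5 CPM) and older excitatory neuron-like cells (7.27 CPM) lie under that upper bound. Neurod6, a gene of excitatory neurons, stood at 158 CPM in interneuron-like cells and at 2394 CPM in older excitatory neuron-like cells.

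Pou3f2 and Pou3f3 were high from radial glia-like to migrating cells and lower in older excitatory neuron-like cells. Pou3f1 was low in radial glia-like cells, high in intermediate progenitor-like and migrating cells, and lower and uneven in older excitatory neuron-like cells. Pou3f3 was already high in radial glia-like cells at 705 CPM (675 to 736), and stood at 785 CPM (740 to 833) in intermediate progenitor-like cells, 871 CPM (835 to 909) in migrating neuron-like cells and 258 CPM (247 to 269) in older excitatory neuron-like cells. Pou3f2 followed the same order of stages, with 266 CPM (248 to 285), 352 CPM (321 to 384), 495 CPM (468 to 524) and 139 CPM (131 to 147). Pou3f1, also known as Oct6, was low in radial glia-like cells at 26.7 CPM (21.2 to 33.2), and stood at 199 CPM (177 to 224) in intermediate progenitor-like cells, 164 CPM (149 to 181) in migrating neuron-like cells and 98.6 CPM (91.9 to 106) in older neuron-like cells. Among the older clusters it ranged from 26.8 CPM in the Hs3st4 cluster to 207 CPM in the Clstn2 cluster. The ratio of Pou3f1 in migrating to intermediate progenitor-like cells was 0.825 (0.707 to 0.965), below 1 but short of 1.5-fold.

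**Figure D1:**
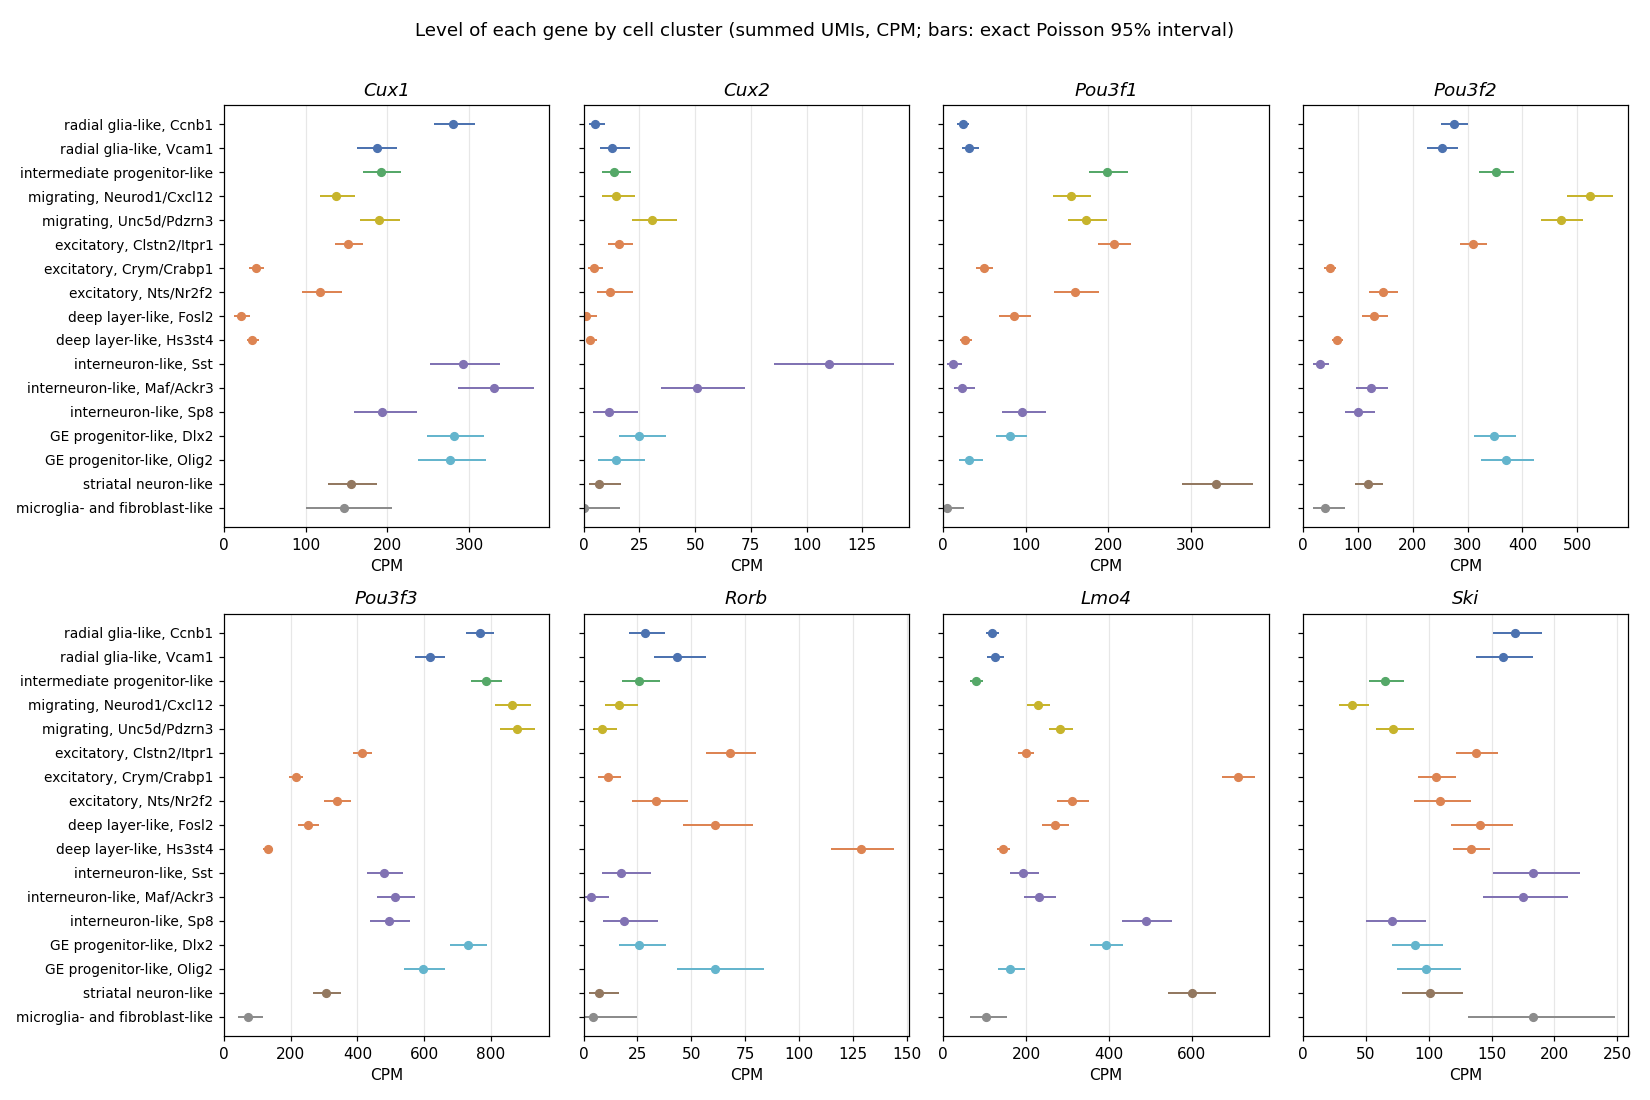
Level of each of the 8 genes, as UMIs summed over the cells of a cluster per 1000000 UMIs (CPM, horizontal axis, linear from 0), in 17 groups of cells (rows), with exact Poisson 95% intervals as bars. Pou3f2 and Pou3f3 are high from radial glia-like to migrating cells, Lmo4 is highest among the excitatory clusters in the Crym and Crabp1 cluster (711 CPM), Rorb in the Hs3st4 cluster (129 CPM), and Cux2 over all groups in the Sst cluster (110 CPM).

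The promoters of Pou3f2 and Pou3f3 are shown because these paralogs had the most alike patterns among the 8 genes over the 23 clusters (Pearson's r of log2 CPM of 0.79, a description). Both genes have a single exon, with Pou3f2 at chr4:22482780-22488366 on the minus strand and Pou3f3 at chr1:42695768-42703176 on the plus strand (GENCODE M21, build GRCm38). Each line gives the 250 bases before the annotated start in RefSeq (GRCm38.p6), 5′ to 3′ on the strand of the gene, at chr4:22488367-22488616 and chr1:42695518-42695767, with capitals marking each CCAAT.
Pou3f2: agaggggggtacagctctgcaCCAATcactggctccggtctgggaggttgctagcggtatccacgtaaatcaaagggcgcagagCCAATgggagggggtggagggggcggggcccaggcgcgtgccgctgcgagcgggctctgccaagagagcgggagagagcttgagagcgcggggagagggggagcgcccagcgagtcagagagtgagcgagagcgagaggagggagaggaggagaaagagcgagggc
Pou3f3: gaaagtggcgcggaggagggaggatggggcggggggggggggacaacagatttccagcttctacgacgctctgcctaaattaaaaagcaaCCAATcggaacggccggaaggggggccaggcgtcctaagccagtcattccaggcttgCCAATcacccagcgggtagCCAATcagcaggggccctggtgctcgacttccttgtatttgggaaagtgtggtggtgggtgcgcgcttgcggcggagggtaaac
The Pou3f2 window holds 2 CCAAT boxes and the Pou3f3 window 3. Over 32851 RefSeq windows of this length, 33.8% hold CCAAT on either strand (as CCAAT or ATTGG), 10.1% hold 2 or more and 2.79% hold 3 or more. CCAAT was counted after the windows had been read. The octamer ATGCAAAT, the classical POU factor motif, is in neither window on either strand, and 1.6% of all windows hold it. RefSeq promoters were matched for 7 of the 8 genes.

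From radial glia-like to intermediate progenitor-like cells, 3 of the 7 members with enough UMIs passed 1.5-fold, 1 higher and 2 lower. Of all 9273 genes measured in that comparison 34.1% passed, 13.8% higher and 20.2% lower, so the share of members past the limit is close to that of genes in general. Pou3f1 was 7.47-fold higher (5.81 to 9.70) in intermediate progenitor-like cells, at 140 CPM against 28.0 CPM in the first run and 251 CPM against 24.9 CPM in the second. Ski, a corepressor that works with SMAD proteins and histone deacetylases, was lower at 65.5 CPM (52.8 to 80.3) against 165 CPM (151 to 180) in radial glia-like cells, a ratio of 0.397 (0.314 to 0.496). Lmo4 was lower at 79.0 CPM against 120 CPM, a ratio of 0.656 (0.526 to 0.814), but this call was not stable. It was lost in the second run, where the ratio was 0.751, and with clusters drawn on 1000 variable genes the log2 ratio turned to 0.65. Pou3f2 had a ratio of 1.32 (1.18 to 1.48), short of the limit, but this depended on the clustering. It passed the limit at Leiden resolutions of 0.5 and 2, with log2 ratios of 0.75 and 1.03. It also passed with 15 principal components (0.75), with 1000 variable genes (0.75) and with members and gene lists allowed as features (0.65). Cux1 was at 192 CPM in intermediate progenitor-like cells and 242 CPM in radial glia-like cells, and Cux2 had only 19 and 25 UMIs in them, too few for a call.

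From intermediate progenitor-like to migrating neuron-like cells, 3 of 8 members passed 1.5-fold, against 26.4% of 8486 genes (11.4% higher and 15% lower). Lmo4, which binds the LIM domain partner Ldb1 in competition with LIM homeodomain factors, was 3.24-fold higher (2.64 to 4) in migrating cells, at 256 CPM against 79.0 CPM. Cux2 was 1.69-fold higher, at 22.9 CPM against 13.5 CPM, with an interval of 0.991 to 3.02 that holds no difference. In the first run the Cux2 ratio was 1 and in the second 2.87, where it rests on 33 UMIs in migrating cells and 8 in intermediate progenitor-like cells. Rorb was lower, with a ratio of 0.479 (0.285 to 0.800) and 30 UMIs in migrating cells. Its ratio was 0.261 in the first run but 0.667 in the second, on 6 and 24 UMIs in migrating cells. Pou3f2 had a ratio of 1.41 (1.27 to 1.57), and passed the limit in the second run at 1.75 but not in the first at 1.13.

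From migrating to older excitatory neuron-like cells, 7 of 8 members passed 1.5-fold, 2 higher and 5 lower, against 29.5% of 10202 genes (17.2% higher and 12.3% lower). Pou3f2 and Pou3f3 were lower, with ratios of 0.281 (0.258 to 0.305) and 0.296 (0.279 to 0.315), and Pou3f1 with a ratio of 0.600 (0.531 to 0.678). Cux1 was lower at 72.7 CPM (66.9 to 78.9) against 164 CPM (149 to 181) in migrating cells, a ratio of 0.442 (0.389 to 0.503). Cux2 was lower at 7.27 CPM against 22.9 CPM, a ratio of 0.317 (0.216 to 0.466). The same 5 genes were below 1 in both runs, and Pou3f1 missed the limit in the second, at 0.684. Rorb and Ski went the other way. Rorb was 5.63-fold higher (3.90 to 8.42) in older neurons, 14.2-fold in the first run but 3.44-fold in the second, and Ski was 2.26-fold higher (1.89 to 2.72). Lmo4 stood at 317 CPM in older and 256 CPM in migrating neuron-like cells, a ratio of 1.24 (1.13 to 1.35). The Crym and Crabp1 cluster gave 1269 of the 2530 Lmo4 UMIs of the older class. By cluster, Lmo4 ranged from 144 CPM (Hs3st4) over 199 CPM (Clstn2), 269 CPM (Fosl2) and 311 CPM (Nts) to 711 CPM (Crym). The deep layer-like clusters together stood at 180 CPM, below migrating cells.

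Ski thus had its lowest levels in the middle of the lineage. It stood at 165 CPM in radial glia-like cells, 65.5 CPM in intermediate progenitor-like cells, 56.1 CPM in migrating cells and 127 CPM in older neurons. Both runs held this order of stages, with 53.6 and 59.1 CPM in migrating cells. The step from intermediate progenitor-like to migrating cells was not resolved, with a ratio of 0.856 (0.652 to 1.13) that holds no difference. Its log2 ratio turned to 0.64 at a Leiden resolution of 0.5 and to 0.59 with 1000 variable genes, higher in migrating cells. Microglia- and fibroblast-like cells held 183 CPM (131 to 248). Of 13 genes listed as Ski relatives and partners, 11 were measured between older and migrating neurons, 1 of them higher and 4 lower. Over all genes measured there, 17.2% were higher and 12.3% lower. Smad3, a transducer of TGF-beta and activin signals, had a ratio of 1.97 on 45 UMIs in older and 7 in migrating neurons, with an interval (0.882 to 5.18) that holds no difference. Dach1, a relative of Ski, had a ratio of 0.246 (0.186 to 0.326).

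The 2 migrating clusters, one led by Unc5d and Pdzrn3 and the other by Cxcl12 and Slc17a6 with Neurod1, differed in pooled levels of Ski and Cux1. The Cux1 difference lay mainly in the second run. Pou3f3 stood at 878 CPM (827 to 931) in the Unc5d cluster and 864 CPM (812 to 919) in the Neurod1 cluster. Its direction turned between the runs, with 634 against 737 CPM in the first and 1149 against 1046 CPM in the second. Ski stood at 71.7 CPM (57.7 to 88.0) in the Unc5d cluster and 39.2 CPM (28.7 to 52.2) in the Neurod1 cluster, with the same direction in both runs. Pou3f2 stood at 470 CPM (433 to 510) in the Unc5d cluster and 523 CPM (482 to 566) in the Neurod1 cluster, and the runs went opposite ways, with 254 against 445 CPM in the first but 711 against 634 CPM in the second. Cux1 stood at 190 CPM (167 to 215) in the Unc5d cluster and 137 CPM (117 to 160) in the Neurod1 cluster. In the first run it stood at 147 CPM (119 to 179) against 136 CPM (110 to 166), with intervals that overlap. In the second it stood at 238 CPM (201 to 281) against 139 CPM (108 to 176). With the runs pooled, the intervals of Ski and of Cux1 stand apart between these clusters, while those of Cux2 overlap. Cux2 stood at 30.7 CPM (21.8 to 42) in the Unc5d cluster and 14.5 CPM (8.43 to 23.2) in the Neurod1 cluster. In the first run Cux2 stood at 14.9 CPM in the Unc5d cluster and 18.8 CPM in the Neurod1 cluster, and in the second at 48.3 CPM and 8.28 CPM, on 29 and 4 UMIs.

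The counts of Pou3f3 share a locus with a long noncoding RNA. RefSeq ends Pou3f3 at position 42700210 of chromosome 1 and places 2900092D14Rik at 42700336 to 42703176, inside the single exon that GENCODE gives to Pou3f3. Of the summed UMIs of both symbols 30.4% were counted for 2900092D14Rik, with a range from 22.1% in Sp8 interneuron-like cells to 42.3% in the Fosl2 cluster. With both summed, the ratio of older to migrating neurons was 0.309 (0.294 to 0.325), close to the 0.296 of Pou3f3 alone. The 3 genes most like Pou3f3 over the 23 clusters were 2900092D14Rik (r = 0.95), its neighbour on the opposite strand Pantr1 (0.93) and Hnrnph1 (0.92).

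Among older excitatory clusters, the Clstn2 and Itpr1 cluster had the highest pooled levels of the POU genes and Cux1, and the Hs3st4 deep layer-like cluster the highest Rorb. In the first run the Clstn2 cluster lay below the Nts and Nr2f2 cluster in all 4 genes. Against the Hs3st4 cluster, 5 of 7 members passed 1.5-fold in the Clstn2 cluster, 4 higher and 1 lower, where 18.0% of 8686 genes did (6.46% higher and 11.6% lower). Pou3f1 stood at 207 CPM (188 to 228) in the Clstn2 cluster and 26.8 CPM (20.6 to 34.2) in the Hs3st4 cluster, a 7.74-fold difference (5.94 to 10.2). Pou3f2 stood at 310 CPM against 62.0 CPM (5-fold, 4.18 to 6.02), and Pou3f3 at 414 CPM against 131 CPM (3.16-fold, 2.77 to 3.61). Cux1 stood at 152 CPM (136 to 170) against 34.8 CPM (27.7 to 43.1), a 4.38-fold difference (3.43 to 5.65). The Cux1 level in the Hs3st4 cluster is below the 147 CPM of microglia- and fibroblast-like cells. Cux2 had 32 UMIs in the Clstn2 cluster and 7 in the Hs3st4 cluster, too few for a call.

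These differences were larger in the second run. Pou3f1 was 16.6-fold higher in the Clstn2 cluster in the second run, with 314 CPM (283 to 348) against 19.0 CPM, and 1.86-fold higher in the first, with 57.8 CPM (42.7 to 76.4) against 31.1 CPM. The ratio of Cux1 was 7.08 in the second run and 2.19 in the first, that of Pou3f2 4.6 and 2.76, and that of Pou3f3 3.52 and 2.06. Each of the 4 genes passed 1.5-fold in either run. The Clstn2 cluster held 186 first-run and 262 second-run cells.

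**Figure D2:**
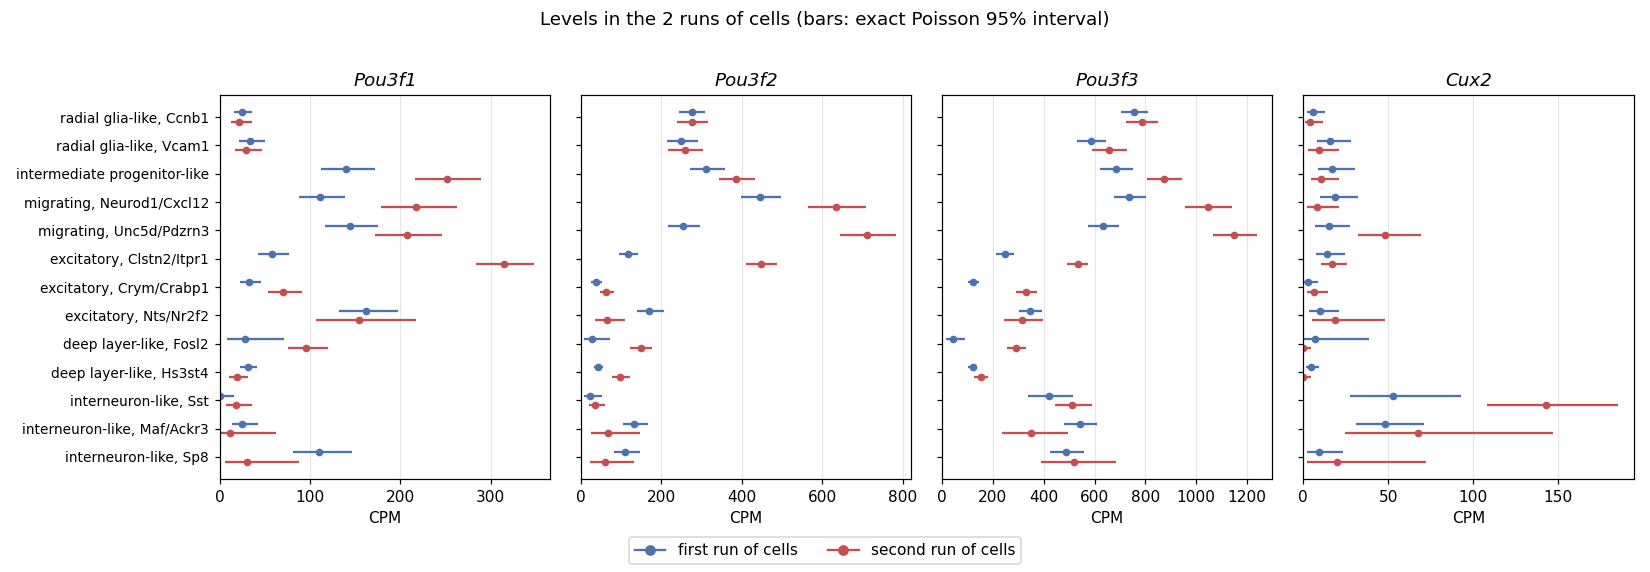
Levels of Pou3f1, Pou3f2, Pou3f3 and Cux2 (CPM, horizontal axis, linear from 0) in 13 clusters (rows), separately in the first run of cells (blue) and the second (red), with exact Poisson 95% intervals. In the Clstn2 and Itpr1 cluster Pou3f1 stands at 57.8 CPM in the first run but 314 CPM in the second, while in the Hs3st4 cluster it stands at 31.1 and 19.0 CPM.

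Rorb was lower in the Clstn2 cluster, at 67.8 CPM (57.0 to 80.1) against 129 CPM (115 to 144) in the Hs3st4 cluster, a ratio of 0.526 (0.427 to 0.645). The ratio passed the limit in each run, at 0.633 in the first and 0.397 in the second. Rorb was nearly absent from the Crym and Crabp1 cluster, at 11.2 CPM (6.84 to 17.3). In cells thinned to 1000 UMIs, 4.69% (2.92 to 7.08) of the Clstn2 cluster and 9.64% (7.36 to 12.3) of the Hs3st4 cluster had a Rorb UMI, or 17.4% and 25.3% unthinned, at median depths of 4387 and 4149 UMIs. The share in the Clstn2 cluster lies under the limit of 6.52% that 0 of 46 thinned microglia- and fibroblast-like cells allows. Genes most like Rorb over the clusters were Dab1, the intracellular adaptor of Reelin signalling, Tenm3, a teneurin of axon and synapse wiring, and Ptprz1, a receptor phosphatase, each with r = 0.81.

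Lmo4 was highest in the Crym and Crabp1 cluster. It stood there at 711 CPM (672 to 751), its highest level over all 23 clusters, against 144 CPM (130 to 161) in the Hs3st4 cluster, a 4.92-fold difference (4.36 to 5.56). At 1000 UMIs 45.0% (39.6 to 50.5) of its cells had an Lmo4 UMI, against 12% (9.51 to 15) of the Hs3st4 cluster, or 82.4% and 34.6% unthinned. The difference was 3.51-fold in the first run but 8.40-fold in the second. In that comparison 4 of 7 members passed 1.5-fold, against 21.5% of 8684 genes (9.63% higher and 11.9% lower). Pou3f1 (1.84-fold) and Pou3f3 (1.65-fold) were higher, but in the first run their ratios were 1.04 and 1.03, and at a Leiden resolution of 0.5 the log2 ratio of Pou3f3 was -0.04. Rorb was lower, with a ratio of 0.0868 (0.0523 to 0.136), at 0.155 in the first run but 0.0289 in the second, on 4 UMIs in the Crym cluster. Pou3f2 had a ratio of 0.786 (0.596 to 1.03), and its direction depended on the clustering. With 15 principal components the Crym and Clstn2 clusters were each matched to a cluster of 546 cells, and its log2 ratio was 2.19. It was -1.95 and -1.12 at Leiden resolutions of 0.5 and 2, -0.64 with 1000 variable genes and -1.27 with members and lists allowed as features.

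Some related LIM factors also differed between the Crym and Hs3st4 clusters. Of 6 measured genes of the LMO family and LIM partners 2 were higher and 2 lower in the Crym cluster than in the Hs3st4 cluster. Over all genes measured there, 9.63% were higher and 11.9% lower. Lhx2, a LIM homeodomain factor of cortical progenitors, was 8.03-fold higher (6.95 to 9.32). Ldb2, a LIM domain binding protein and a marker used to name deep layer clusters, had a ratio of 0.168. Nr2f2, a nuclear receptor of ventral and caudal identity, was 4.58-fold higher. Nr2f2 is not a LIM factor and stands on the list of nuclear receptors related to Rorb. The 7 migrating neuron markers summed to 2877 CPM in the Crym cluster and 231 CPM in the Hs3st4 cluster, and their part in these differences was not tested.

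Ski was even among the older excitatory clusters, between 106 CPM in the Crym cluster and 141 CPM in the Fosl2 cluster. Over both runs the Nts and Nr2f2 cluster lay between the Clstn2 and Hs3st4 clusters for Cux1 (118 CPM, 95.6 to 144), Pou3f1 (160 CPM, 134 to 189), Pou3f2 (145 CPM, 121 to 174) and Pou3f3 (339 CPM, 301 to 381). That order rests on the second run. In the first run, which gave 160 of its 204 cells, the Nts cluster stood above the Clstn2 cluster for Pou3f1 (162 against 57.8 CPM), Pou3f2 (170 against 118 CPM) and Pou3f3 (346 against 246 CPM). For Cux1 it stood at 110 CPM (85.7 to 140) against 83.7 CPM (65.4 to 106), with intervals that overlap. In the Clstn2 cluster 29.5% of thinned cells (25.3 to 33.9) had a Pou3f3 UMI. In the Hs3st4 cluster it was 10.7% (8.28 to 13.5), close to the 10.9% (3.62 to 23.6) of microglia- and fibroblast-like cells, which rests on 5 of 46 cells. Its level of 131 CPM (117 to 146) was above their 71.3 CPM (40.7 to 116). Unthinned the shares were 63.4%, 28.7% and 23.9% in the same order.

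Of 17 other upper layer and callosal genes measured, 9 were higher and 3 lower in the Clstn2 cluster than in the Hs3st4 cluster, where 6.46% of all genes were higher and 11.6% lower, with a median log2 ratio of 0.74 beside -0.03 over all genes. Dok5, a docking protein of receptor kinases, was 6.53-fold higher, and Plxnd1, a semaphorin receptor found in callosal neurons, had a ratio of 0.301. Of 12 deep layer fate genes 0 were higher and 11 lower, but 10 of that list are also the markers that named the Hs3st4 cluster, so this count restates the name. Of the 20 upper layer and callosal genes listed, 6 are likewise the upper layer markers used in naming. From migrating to older neurons, 5 of 17 upper layer genes were higher and 5 lower, where 17.2% of all genes were higher and 12.3% lower. Cdh13, a cadherin, was 15.2-fold higher in older neurons and Unc5d, a netrin receptor and a marker of the migrating class, had a ratio of 0.0995.

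**Figure D3:**
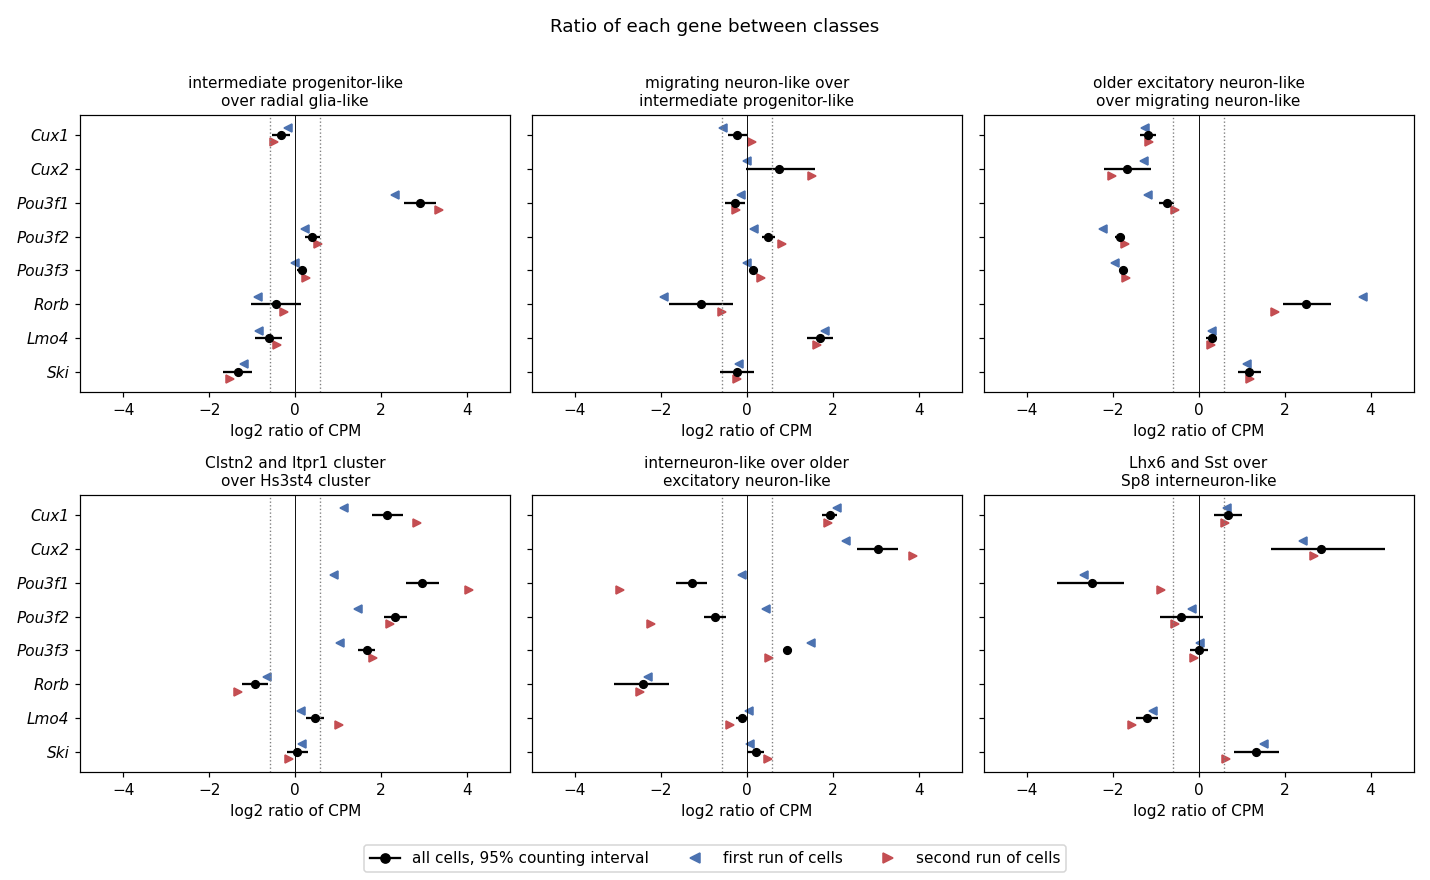
Log2 ratio of CPM for each member (rows) in 6 comparisons (panels), with exact conditional binomial 95% intervals (black), and the ratio within the first run (blue) and the second run (red) of cells. Dotted lines mark 1.5-fold, a point right of 0 is higher in the class named first, and genes with under 50 UMIs over both classes are left out. The 3 POU genes and Cux1 lie right of 0 in the Clstn2 panel in both runs, and Pou3f1 and Pou3f2 change between the runs in the interneuron panel.

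In interneuron-like cells the 2 cut factors were higher than in any older excitatory cluster. Cux1 stood at 276 CPM (252 to 302) in interneuron-like cells and 72.7 CPM (66.9 to 78.9) in older excitatory neuron-like cells, a 3.80-fold difference (3.36 to 4.29). Cux2 stood at 59.9 CPM (49.0 to 72.4) against 7.27 CPM (5.52 to 9.40), 8.23-fold higher (5.92 to 11.5). Its ratio was 4.96 in the first run but 14.6 in the second. Of the 8 members 3 were higher and 3 lower in interneurons, where 25.9% of 10141 genes passed (10.8% higher and 15% lower). Rorb was lower, at 13 CPM against 69.1 CPM, a ratio of 0.188 (0.118 to 0.285).

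The POU genes split in this comparison and depended on the run. Pou3f3 stood at 496 CPM (464 to 530) in interneuron-like cells and 258 CPM in older excitatory neuron-like cells, 1.92-fold higher (1.78 to 2.08), at 2.81-fold in the first run but 1.42-fold in the second. Interneuron levels hardly differed between the runs (499 and 490 CPM), while those of older excitatory neurons did (177 and 345 CPM). Pou3f1 had a pooled ratio of 0.412 (0.319 to 0.525), which was 0.919 in the first run but 0.129 in the second. Pou3f2 had a pooled ratio of 0.601 (0.503 to 0.714) that turned to 1.37 in the first run and was 0.213 in the second. The pooled calls of Pou3f1 and Pou3f2 therefore rest on the second run. With the older class limited to its deep layer-like clusters, neither passed the limit, at log2 ratios of -0.09 and 0.04.

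The high Cux2 level belonged to the Lhx6 and Sst interneuron-like cells, the type born in the medial ganglionic eminence. They held 80.9 CPM (65.8 to 98.4), against 11.2 CPM (4.12 to 24.4) in Sp8 interneuron-like cells, the type known from the caudal and lateral eminences, a 7.21-fold difference (3.20 to 20.1) on 100 and 6 UMIs. Between these classes 5 of 7 members passed 1.5-fold, 3 higher and 2 lower, where 18.6% of 6355 genes did (10.4% higher and 8.2% lower). Cux1 was 1.60-fold higher (1.29 to 2.01) at 312 CPM against 194 CPM, and Ski 2.52-fold higher (1.78 to 3.65) at 179 CPM against 71.0 CPM. Lmo4 was lower, at 211 CPM (186 to 238) against 488 CPM (430 to 551), a ratio of 0.433 (0.363 to 0.516). This call of Lmo4 was lost at a Leiden resolution of 2, with a log2 ratio of -0.47. Pou3f1 was lower, with a ratio of 0.178 (0.102 to 0.302). Its ratio was 0.158 in the first run but 0.545 in the second, where the Sp8 cells gave 3 UMIs. The 51 Pou3f1 UMIs of Sp8 cells lay in 18 of 220 cells, with up to 10 in 1 cell. At 1000 UMIs it was found in 1.2% (0.443 to 2.6) of Lhx6 and Sst cells and 4.09% (1.89 to 7.62) of Sp8 cells, with intervals that overlap. Ski was 2.85-fold higher in the first run but 1.56-fold in the second.

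Pou3f3 did not separate the 2 interneuron classes, at 497 CPM (458 to 538) in Lhx6 and Sst cells and 495 CPM (438 to 559) in Sp8 cells, a ratio of 1 (0.867 to 1.16). The overlapping noncoding RNA 2900092D14Rik had a ratio of 1.63, and both summed one of 1.14. In other gene lists, Satb1, a chromatin organiser with a cut-like domain known for its role in Sst interneurons, was 2.73-fold higher in the Lhx6 and Sst class. Rora, the paralog of Rorb, had a ratio of 13 (3.44 to 110) on 60 and 2 UMIs. Rora was also 20-fold higher (11 to 38.6) in interneurons than in older excitatory neurons, where Rorb had a ratio of 0.188.

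Within the Lhx6 and Sst class, Cux2 reached 110 CPM (85.4 to 139) in the cluster led by Sst, Neto1 and Nxph2, its highest level over all 23 clusters, and 51.0 CPM (34.7 to 72.5) in the cluster with Maf, Lhx6 and Ackr3 among its leading genes. The ratio of 2.15 (1.39 to 3.40) was 2.11 in the second run but 1.10 in the first, and the Sst cluster drew 152 of its 237 cells from the second run while the Maf cluster drew 220 of its 262 from the first. Pou3f2 was lower in the Sst cluster, at 30.2 CPM (18.2 to 47.2) against 123 CPM (97.1 to 155) in the Maf cluster, a ratio of 0.245 (0.140 to 0.409). It was 0.166 (0.0523 to 0.407) in the first run but 0.518 in the second, with an interval (0.187 to 1.64) that holds no difference. The level in the Sst cluster is no higher than that in microglia- and fibroblast-like cells and cannot be told from background. That reference rests on 9 Pou3f2 UMIs, all from the first run, while most Sst cluster cells came from the second. Of 6 members measured 1 was higher and 1 lower, where 22.9% of 5160 genes passed (11.7% higher and 11.2% lower). Genes most like Cux2 over the clusters were Nxph2 (r = 0.78), which also leads the Sst cluster, Sh3rf1 (0.72) and Thbs1 (0.72).

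The share of cells with a Cux2 UMI at 1000 UMIs was 8.02% (4.90 to 12.2) in the Sst cluster and 6.11% (3.53 to 9.73) in the Maf cluster, or 21.1% and 9.92% unthinned at median depths of 2518 and 2165 UMIs. It was 0.455% (0.0115 to 2.51) in Sp8 cells, 2.02% (1.16 to 3.26) in migrating neuron-like cells and 0.915% (0.524 to 1.48) in older excitatory cells. Cux1 was found in 20.9% (17.9 to 24.0) of interneuron-like cells and 6.17% (5.09 to 7.41) of older excitatory cells at this depth, or 40.6% and 18.5% unthinned. Microglia- and fibroblast-like cells held it in 10.9% (3.62 to 23.6), an interval that holds the share of older excitatory cells, at a level (147 CPM) above that of several excitatory clusters. These cells therefore give no background reference for Cux1, and its shares are given as values only. In the Clstn2 cluster the share was 12.3% (9.38 to 15.7). The microglia- and fibroblast-like Cux2 share was 0 of 46 cells, which allows up to 6.52%. The Cux1 symbol also covers the alternative product CASP, a Golgi protein with another 3′ end, and these counts do not tell the products apart.

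In the ventral forebrain, ganglionic eminence progenitor-like cells carried 4 of 8 members past 1.5-fold against cortical radial glia-like cells, 3 higher and 1 lower, where 23.6% of 9303 genes passed (8.45% higher and 15.1% lower). Lmo4 was 2.49-fold higher (2.16 to 2.86), on 465 UMIs in the progenitors and 361 in radial glia-like cells, Cux2 2.47-fold (1.42 to 4.35) on 32 and 25 UMIs, and Pou3f1 2.27-fold (1.67 to 3.10). Pou3f1 overlaps the antisense gene Gm2164, and the strand of counting is not given in the sources used here. Ski was lower, with a ratio of 0.562 (0.464 to 0.678). Of these progenitors 432 lay in the first run but only 19 in the second, and the Ski ratio was 0.686 in the first run but 0.155 in the second, on 2 UMIs in the progenitors. The ratio of Cux1 was 1.16 and that of Pou3f3 0.963, neither past the limit. Lmo4 was uneven between the progenitor clusters, at 392 CPM (353 to 434) in the one led by Dlx2 and 162 CPM (132 to 197) in the one led by Olig2.

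Detection in the same cell was read after each cell had been thinned to 1000 UMIs, so that deep cells do not show all genes together. The POU genes tended to be found in the same migrating cells. Of migrating neuron-like cells with a Pou3f1 UMI, 48.6% (38.9 to 58.4) had a Pou3f2 UMI, against 30.5% (27.0 to 34.1) of those without. Pou3f3 was found in 70.6% (61.2 to 79.0) of cells with Pou3f1 and 50.4% (46.5 to 54.2) of those without, and in 62.5% (56.3 to 68.3) of cells with Pou3f2 and 48.6% (44.3 to 52.9) of those without. The runs differ in POU levels. Within them the differences for Pou3f2 given Pou3f1 were in the same direction, 36.4% against 21.2% in the first and 56.9% against 42.4% in the second, but the intervals overlap in each run (22.4 to 52.2 and 17.3 to 25.7, and 44.0 to 69.2 and 36.7 to 48.3).

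Intermediate progenitor-like cells showed the same pairs. Pou3f3 was found in 63.3% (51.7 to 73.9) of cells with Pou3f1 and 43.6% (38.4 to 48.9) of those without. In the second run the shares were 73.1% (59.0 to 84.4) and 48.1% (40.7 to 55.6), and in the first 44.4% (25.5 to 64.7) and 38.9% (31.6 to 46.5). All 3 POU genes were found together in 24 of 439 intermediate progenitor-like cells (5.47%), 38 of 792 migrating cells (4.80%), 16 of 1749 older excitatory cells (0.915%), 2 of 710 radial glia-like cells and 2 of 719 interneuron-like cells. These counts also depend on how common each gene was. Pou3f1, with or without the others, was found in 18.0%, 13.8%, 8.52%, 1.83% and 2.09% of these classes, in the same order. No joint share expected from the single genes was computed. At least 1 of the 3 POU genes was found in 67.7% (64.3 to 70.9) of migrating cells, 54.7% (49.9 to 59.4) of the Clstn2 cluster and 16.5% (13.6 to 19.8) of the Hs3st4 cluster.

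**Figure D4:**
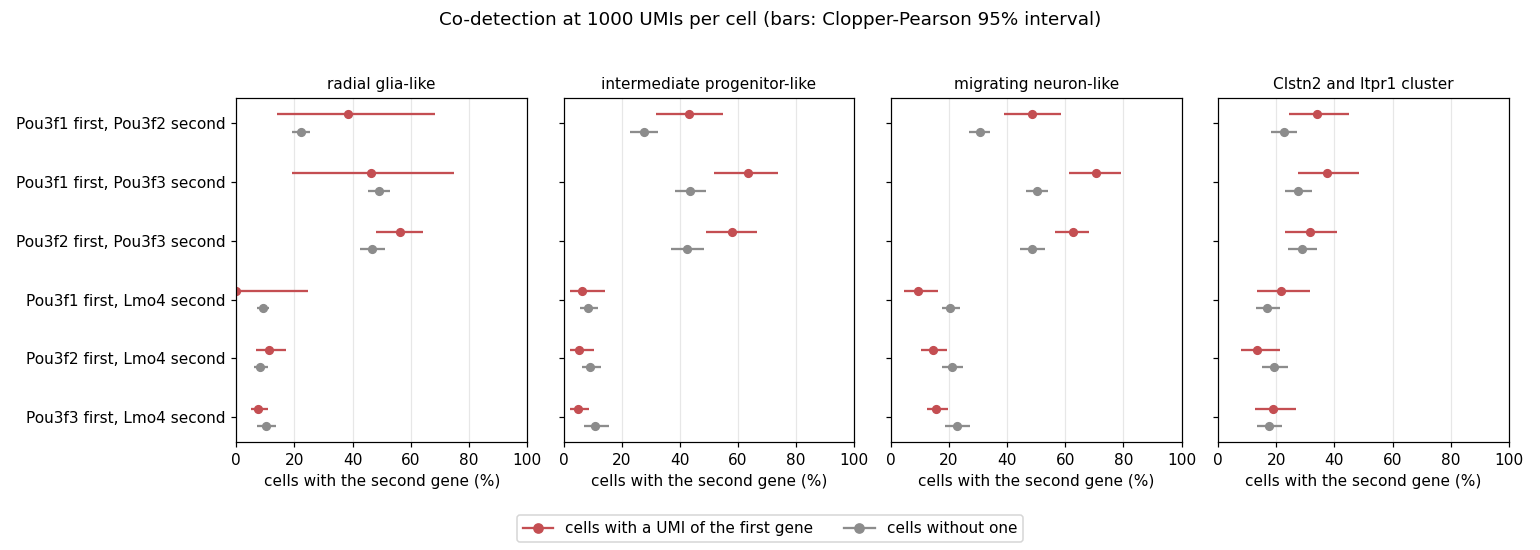
Share of cells with a UMI of the gene named second (horizontal axis, percent) among cells with a UMI of the gene named first (red) and among cells without one (grey), at 1000 UMIs per cell, in 4 groups of cells, with Clopper-Pearson 95% intervals. In migrating neuron-like cells 48.6% of cells with Pou3f1 and 30.5% of those without had Pou3f2, while 9.17% and 20.5% had Lmo4.

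Lmo4 was found less often in migrating cells with Pou3f1 than in those without. With the runs pooled, the intervals stood apart after thinning but not before it. Unthinned, the shares were 35.8% (29.9 to 42.1) with Pou3f1 and 45.0% (40.7 to 49.3) without, which overlap. After thinning, Lmo4 was found in 9.17% (4.49 to 16.2) of cells with Pou3f1 and 20.5% (17.5 to 23.7) of cells without. The second run gave 7.69% (2.54 to 17) and 21.5% (17 to 26.7), and the first 11.4% (3.79 to 24.6) and 19.7% (15.8 to 24.0), so the direction was shared, but the intervals overlap in the first run and touch in the second. Given Pou3f2, Lmo4 was found in 14.6% (10.5 to 19.4) of cells, against 21.1% (17.7 to 24.8) without it, with intervals that overlap. For Pou3f3 the unthinned shares were 41.2% (37.3 to 45.1) with it and 45.7% (37.6 to 54.0) without, which overlap as well. In the older excitatory class, Lmo4 was found in 11% (5.62 to 18.8) of cells with Rorb and 22.7% (20.7 to 24.8) of those without. That class joins the Rorb-poor, Lmo4-rich Crym cluster with the Rorb-rich Hs3st4 cluster. Within the Hs3st4 cluster alone the shares were 8.93% (2.96 to 19.6) and 12.4% (9.69 to 15.5), which overlap.

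The same holds for the POU pairs of the older class. Pou3f2 was found in 27.5% (20.5 to 35.4) of older excitatory cells with Pou3f1 and 10.8% (9.27 to 12.4) of those without, but within the Clstn2 cluster in 34.1% (24.3 to 45.0) and 22.5% (18.3 to 27.2). In the second run of that cluster the shares were 37.7% (26.9 to 49.4) and 31.4% (24.7 to 38.6). In interneuron-like cells no pair of members had intervals that stood apart. Cux2 was found in 4.67% (1.90 to 9.38) of interneuron-like cells with Cux1 and 5.10% (3.44 to 7.24) of those without.

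The remaining patterns over the 23 clusters were as follows. Cux1 was most like Erbb2ip (r = 0.79), Tcf12 (0.78) and Hmgb3 (0.77), and Pou3f1 like Mn1 (0.85), Foxp4 (0.84) and Lrrn3 (0.84). Besides Pou3f3, Pou3f2 was most like Mettl14 (0.83) and Foxn2 (0.79). Lmo4 was most like Gstm7 (0.80), Soga1 (0.80) and Enox1 (0.79), and Ski had the weakest likenesses, to Pkp4 (0.70), Etv5 (0.70) and Trub1 (0.66). The clusters share libraries and differ in size and depth, and the 3 genes were picked from 9708, so these values only describe likeness.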

How the data were processed

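Cells of E15.5 CD1 mouse forebrain were prepared with a droplet kit for 3′ UMI counting. The authors deposited 1 matrix of UMI counts, 14498 genes by 5777 cells, in which each gene was found in at least 5 cells and no mitochondrial gene is listed. The build was mm10 per the submitters' processing notes, and the sources used here name no aligner, counter, annotation or strand. Cell names are serial numbers, so barcodes shared between libraries could not be counted. The 2 runs were read from Y-linked counts along the order of cells and from 11 genes that stand out of alphabetical order, with 4 cells in neither run.

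The members and gene lists were chosen with earlier results of these data known. From the deposited counts, 4 cells over 10% globin were removed, counts were scaled to 10000 per cell and log-transformed, and 2000 variable genes (members, lists, ribosomal, sex-linked and globin genes left out) gave 30 principal components, 15 neighbours and Leiden clusters at resolution 1 (Python 3.11.15, scanpy 1.11.5, leidenalg 0.10.2, igraph 0.11.9, numpy 2.4.6, scipy 1.17.1, matplotlib 3.10.9). A cluster was named from the best of 22 marker lists when the mean log2 ratio of those markers to other cells reached 0.5. At least 3 markers had to be raised 1.5-fold, and a marker of the list had to be among its top 20 genes. No other list could have more markers among its top 10 genes, and its first gene could not be a marker of other lists only. After the clusters were seen, 3 unnamed clusters were placed in the older excitatory class, and 1 cluster had no class. Each of the 3 fit an excitatory list best and had no marker of another kind of list among its top 10 genes. In the Clstn2 and Nts clusters no marker of the best list was among the leading genes. In the Crym cluster, which fit the migrating list best, markers of another list led. Some leading genes are not reported here. Doublets were not removed in the values given, and an alternative removed 256 cells with the highest 5% of doublet scores. Summed UMIs per 1000000 gave levels with exact Poisson intervals, and ratios exact conditional binomial ones, called at 1.5-fold with at least 50 UMIs over both classes. Shares used cells thinned to 1000 UMIs and Clopper-Pearson intervals. Intervals are at 95% and cover counting error alone. No p-value was computed, since all cells form 1 sample. Named were the 8 members, the 3 genes most like each (Pearson's r over clusters of log2 CPM with 10 added, at least 200 UMIs), the highest and lowest called gene of a list, and genes leading a cluster. The ratio step was tested on simulated counts with 200 changed genes. Alternatives were clustering settings, scaling, minimum counts, fold limits, doublets and single runs.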

Additional observations from a re-analysis of the deposited data

How the results depend on the processing

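No paired analysis was possible because no cell is tied to a sample, and for the same reason no replicate could be left out. The count of members past 1.5-fold stayed within 1.5 times its value in 103 of 114 recomputations. It moved from 2 between the Sst and Maf clusters to 4 at Leiden resolution 0.5 and with a minimum of 10 UMIs, and to 1 with clusters drawn on 50% of UMIs and in each run alone. It moved from 5 to 3 between the interneuron classes at resolution 2, from 3 to 5 between intermediate progenitor-like cells and radial glia-like cells with 15 principal components, and from 4 to 2 between the Crym and Hs3st4 clusters at a limit of 2-fold. In the first run alone it moved from 4 to 2 there and for the ganglionic eminence progenitors, and from 3 to 1 between migrating and intermediate progenitor-like cells. Of 689 log2 ratios 5 reversed. Pou3f3 between the Crym and Hs3st4 clusters was -0.04 at resolution 0.5. Lmo4 between intermediate progenitor-like and radial glia-like cells was 0.65 with 1000 variable genes and 0.06 with clusters drawn on 50% of UMIs. Pou3f2 between interneurons and older excitatory neurons was 0.46 in the first run and 0.04 with deep layer-like clusters only. The cause was not tested. TMM scaling, with a log2 factor of -0.11 between migrating and intermediate progenitor-like cells, raised those ratios (Pou3f2 to 0.60, past the limit) and kept 39 of 39 calls, and doublet removal kept 38 of 38. The Sp8 class gave no value where no cluster earned its name (resolution 0.5, 15 components, 1000 genes, lists allowed, 50% of UMIs). The cluster pairs and the deep layer-only class were chosen after seeing the data. Depth limits Cux2 and Rorb most.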

Other observations

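Outside the cortical lineage and the interneurons, Pou3f1 and Lmo4 were also high in striatal neuron-like cells, a class of 253 cells led by Ebf1, Zfp503 and Isl1. Pou3f1 stood there at 331 CPM (290 to 376), its highest level over the 23 clusters, and 20.9% of these cells held a Pou3f1 UMI at 1000 UMIs (35.6% unthinned), against 0 of 46 microglia- and fibroblast-like cells, which allows up to 6.52%. Lmo4 stood at 599 CPM (543 to 659) in them, its highest level after the Crym cluster. Of these cells 237 came from the first run and 16 from the second.

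In 152 basal forebrain neuron-like cells led by Lhx8, all from the first run, Pou3f2 stood at 351 CPM (302 to 405), while Pou3f3 stood at 430 CPM and Lmo4 at 233 CPM. In 76 Cajal-Retzius-like cells, the Reelin-producing neurons of the cortical surface, Cux2 and Rorb had 0 UMIs, Lmo4 stood at 246 CPM and Cux1 at 116 CPM.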
